A study of Rattus norvegicus with 26 samples.

Results

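Apolipoproteins B, E, A1, A2, A4, C1 and C3 and paraoxonase 1 were followed in primary rat hepatocytes exposed to TCDD or PCB 126. All probe sets that the platform's gene table assigns to exactly one of the genes Apob, Apoe, Apoa1, Apoa2, Apoa4, Apoc1, Apoc3 and Pon1 were taken, which gave 8 genes of 4736 on the array and 18 probe sets of 8740 that are not controls. Apob had 5, Apoc3 and Pon1 3 each, Apoa1 and Apoe 2 each, and Apoa2, Apoa4 and Apoc1 1 each. All 18 passed the filter on low values (second-highest value above the median of all values, 3.71 log2). The cells came from livers of female Sprague Dawley rats, as 2 pools of 3 animals, and were cultured for 48 hours. TCDD is a chlorinated dibenzo-p-dioxin and PCB 126 a coplanar polychlorinated biphenyl, and the study asked how their dose responses compare.

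Cultures of each pool received the solvent alone (0.5% DMSO, called vehicle below), TCDD or PCB 126. Doses are log10 molar throughout. TCDD was given at -14, -12, -10, -8 and -6.5 in both pools, and at -11 and -9 in pool 2. PCB 126 was given at -12, -10, -8, -6 and -5 in both pools, and at -11 and -9 in pool 2. In other units -12 is 1 pM, -10 is 100 pM, -8 is 10 nM, -6.5 is 316 nM and -5 is 10 µM. This made 15 groups on 26 arrays, 11 of pool 1 and 15 of pool 2, with 1 array per pool and dose. Each pool mixes cells of its animals into 1 biological unit. The p-values reflect the spread of arrays around the fitted terms. That spread mixes technical variation with any difference in response between the 2 pools, and 2 pools say little about variation between animals. For the difference between pools itself, p measures arrays and not animals. The number of arrays limits the precision. On arrays of whole cultures, fewer cells of a type and less RNA per cell cannot be told apart.

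Apolipoproteins are the protein part of lipoproteins, the particles that carry lipid through plasma, and the liver makes most of them. Apob is the structural protein of very low density lipoprotein (VLDL), Apoa1 and Apoa2 are the main proteins of high density lipoprotein (HDL), Apoe is a ligand for clearance receptors, and the small C proteins sit on both kinds of particle. Pon1 is a secreted, HDL-bound esterase and lactonase that hydrolyses organophosphates. TCDD and PCB 126 are ligands of the aryl hydrocarbon receptor (AhR), a transcription factor whose dimer with Arnt binds DNA at the core letters GCGTG.

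Promoter windows are shown for Pon1, the member with the largest rise, and for Apoa4 and Apoe, of which Apoa4 was lower at high TCDD doses and Apoe, on 1 of its 2 probe sets, at high doses of both chemicals, so that the start region can be read beside the values. RefSeq windows of build GRCr8 (250 bases before to 50 after a gene's start) were matched for 4 of the 8 genes, Pon1, Apoa4, Apoc1 and Apoe, as 7 windows of 300 bases. Capitals mark GCGGG or its reverse complement CCCGC, a 1-base variant of the AhR core that overlaps GC boxes of other factors. The Pon1 window lies at chr4:34287811-34288110 on the minus strand, that of Apoa4 at chr8:55435529-55435828 on the plus strand, and the printed Apoe window at chr1:88484650-88484949 on the minus strand. Apoe had 3 windows, for 3 starts, and the one printed is that with the most GCGGG matches.
Pon1: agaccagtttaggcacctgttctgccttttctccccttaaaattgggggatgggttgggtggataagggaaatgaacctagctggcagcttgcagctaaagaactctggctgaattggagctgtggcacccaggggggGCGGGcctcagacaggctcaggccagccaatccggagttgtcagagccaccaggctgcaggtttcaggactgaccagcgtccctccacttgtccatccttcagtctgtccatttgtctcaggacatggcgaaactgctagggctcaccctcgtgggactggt
Apoa4: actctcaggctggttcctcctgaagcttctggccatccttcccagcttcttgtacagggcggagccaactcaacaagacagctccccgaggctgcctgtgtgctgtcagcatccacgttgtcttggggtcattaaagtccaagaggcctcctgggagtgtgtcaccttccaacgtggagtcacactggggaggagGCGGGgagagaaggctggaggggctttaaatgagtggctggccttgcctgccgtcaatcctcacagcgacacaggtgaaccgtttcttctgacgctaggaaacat
Apoe: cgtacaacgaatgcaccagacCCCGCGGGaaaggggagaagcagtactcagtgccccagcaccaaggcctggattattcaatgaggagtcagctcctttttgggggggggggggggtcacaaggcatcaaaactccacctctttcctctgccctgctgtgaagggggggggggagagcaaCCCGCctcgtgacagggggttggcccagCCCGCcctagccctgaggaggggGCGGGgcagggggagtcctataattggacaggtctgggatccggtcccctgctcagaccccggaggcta

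None of the 7 windows held GCGTG on either strand, and of all 33469 rat windows of this length 29.7% did. The 7 windows come from 4 genes, and those of Apoc1 overlap each other. So few windows cannot show a lack of these letters. GCGGG occurred in 43.3% of all windows. The Pon1 window held it once, at position -112 from the start, the Apoa4 window once at -55, and the Apoe window printed here 5 times, of which 2 overlap. The other two Apoe windows held it 0 and 4 times, and the one with 4 overlaps the printed window. A match is a description of letters, and a window without one says nothing about binding elsewhere. In the GRCr8 gene order Apoa1, Apoc3, Apoa4 and Apoa5 are neighbours on chromosome 8, Apoc4, Apoc1 and Apoe on chromosome 1, and Pon1, Pon3 and Pon2 on chromosome 4.

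Cyp1a1, the cytochrome P450 used as an AhR check, was at 3.45 and 3.28 log2 on the vehicle arrays of pools 1 and 2 and at 11.69 to 12.77 on all TCDD arrays from -10 up. At TCDD -14 it read 3.33 in pool 1 and 5.66 in pool 2, and at -12 it read 9.41 and 9.37. The pool 2 array at -11 read 10.77. Cyp1a1 thus lay above vehicle already at TCDD -12 in both pools. The PCB 126 array at -12 of pool 2 stood apart, with Cyp1a1 at 10.80 against 3.21 in pool 1 and 7.91 at the next higher dose. The TCDD array at -10 of pool 1 had the highest array median of all (3.99, against 3.72 to 3.93 in the rest of pool 1). Signal of the 3' minus the 5' actin control, a sign of RNA or labelling quality, was 0.64 to 1.06 log2 in pool 1 and 1.24 to 1.68 in pool 2, apart from the TCDD array at -11 of pool 2, which stood apart at 2.19. Hepatocyte markers were high on every array: albumin (Alb) ran from 13.72 to 14.50 log2, and the mean of 9 markers from 11.46 to 12.02.

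The dose trends were tested with limma as a slope per decade of dose within each chemical, with the pool as a block, and p-values were adjusted over 5197 probe sets. With TCDD 5 of the 18 probe sets passed an adjusted p of 0.05, 4 of them rising and 1 falling, against 3.10% of all probe sets tested (1.64% rising and 1.46% falling). With PCB 126 4 passed, all rising, against 4.25% (1.56% rising and 2.69% falling). The rising ones were the 3 of Pon1 with both chemicals and 1 of Apob with each, a different one each time. The falling one was of Apoc3. Probe sets of 1 gene are not independent, and the members were chosen with earlier results of these data known. The counts here and at high doses are therefore no test of the members against all probe sets. Nor are the counts given below for fits with arrays left out or settings changed. Apart from centring, the share of all probe sets that passed was not counted in those fits. The median slope of the 18 was -0.02 log2 per decade with TCDD and -0.03 with PCB 126, against -0.01 and 0.01 over all probe sets tested. By sign alone, 11 of 18 slopes were negative with each chemical.

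**Figure D1:**
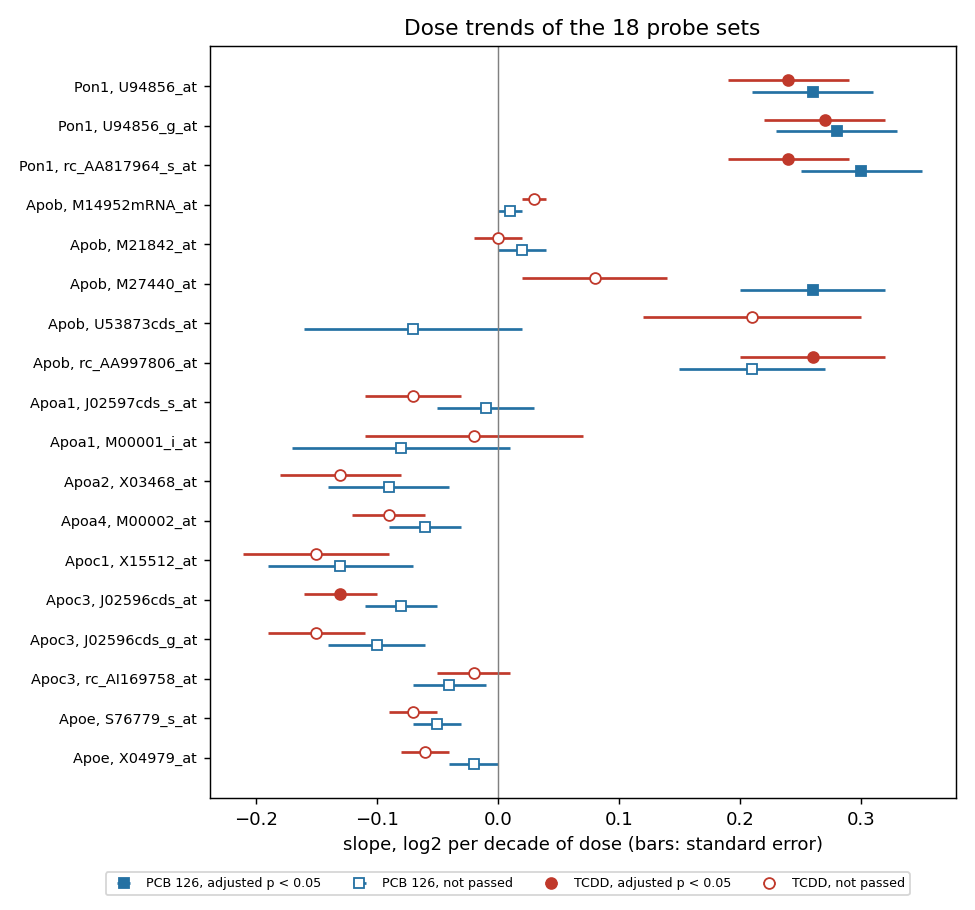
Slope of each of the 18 probe sets in log2 per decade of dose (x axis) for TCDD (circles) and PCB 126 (squares), with bars of 1 standard error and filled symbols where the adjusted p is below 0.05. The 3 Pon1 slopes lie between 0.24 and 0.30 with both chemicals, and those of Apoa1, Apoa2, Apoa4, Apoc1, Apoc3 and Apoe lie below 0.

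At high doses the mean of -8 and -6.5 (TCDD) or of -6 and -5 (PCB 126) was set against vehicle in a model of all 15 groups. With TCDD 5 of 18 passed, 3 higher and 2 lower, against 2.25% of all (1.35% higher and 0.904% lower). With PCB 126 5 passed, 4 higher and 1 lower, against 3.04% (1.56% higher and 1.48% lower). Both comparisons use the same 2 vehicle arrays, so they are not independent of each other. Without the vehicle array of pool 1, or without that of pool 2, the count fell to 2 with TCDD and to 3 with PCB 126. Without the TCDD array at -6.5 of pool 1 it was 3 with TCDD. Without the pool as a block the counts were 2 and 3. Centring each array on its median left 3 with TCDD, and over all probe sets it moved the TCDD high-dose calls from 70 higher and 47 lower to 57 higher and 9 lower. The same centring moved the TCDD trend calls from 85 higher and 76 lower to 69 and 34, and the PCB 126 trend calls from 81 and 140 to 50 and 163.

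Pon1 rose with both chemicals on all 3 of its probe sets. On rc_AA817964_s_at the vehicle arrays read 8.61 (pool 1) and 8.88 log2 (pool 2). In pool 1 the TCDD arrays read 8.81 at -14, 8.73 at -12, 10.21 at -10, 10.70 at -8 and 10.61 at -6.5. In pool 2 they read 9.12 at -14, 9.22 at -12, 10.11 at -11, 10.63 at -10, 11.02 at -9, 10.63 at -8 and 9.91 at -6.5. The TCDD arrays from -11 up lay above those at -14 and -12 and above both vehicle arrays, with no overlap. The highest value was at -9. The array at -11 was that with the highest actin ratio, and the part of RNA quality in it was not tested. Here and below, such dose cuts were read from the values themselves. The share of all probe sets that separate so was not computed.

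With PCB 126 the same probe set read 8.79 at -12, 9.39 at -10, 10.49 at -8, 11 at -6 and 10.75 at -5 in pool 1. In pool 2 it read 9.50 at -12, 8.65 at -11, 8.84 at -10, 9.48 at -9, 10.49 at -8, 10.90 at -6 and 10.48 at -5. The arrays from -8 up (10.48 to 11) did not overlap those at lower doses (8.65 to 9.50) or vehicle. The array at -12 of pool 2, on which Cyp1a1 was also high, was the highest of the PCB 126 arrays below -8. Its part in the shape of the curve was not tested beyond leaving it out, which left all 4 calls of the PCB 126 trend in place.

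**Figure D2:**
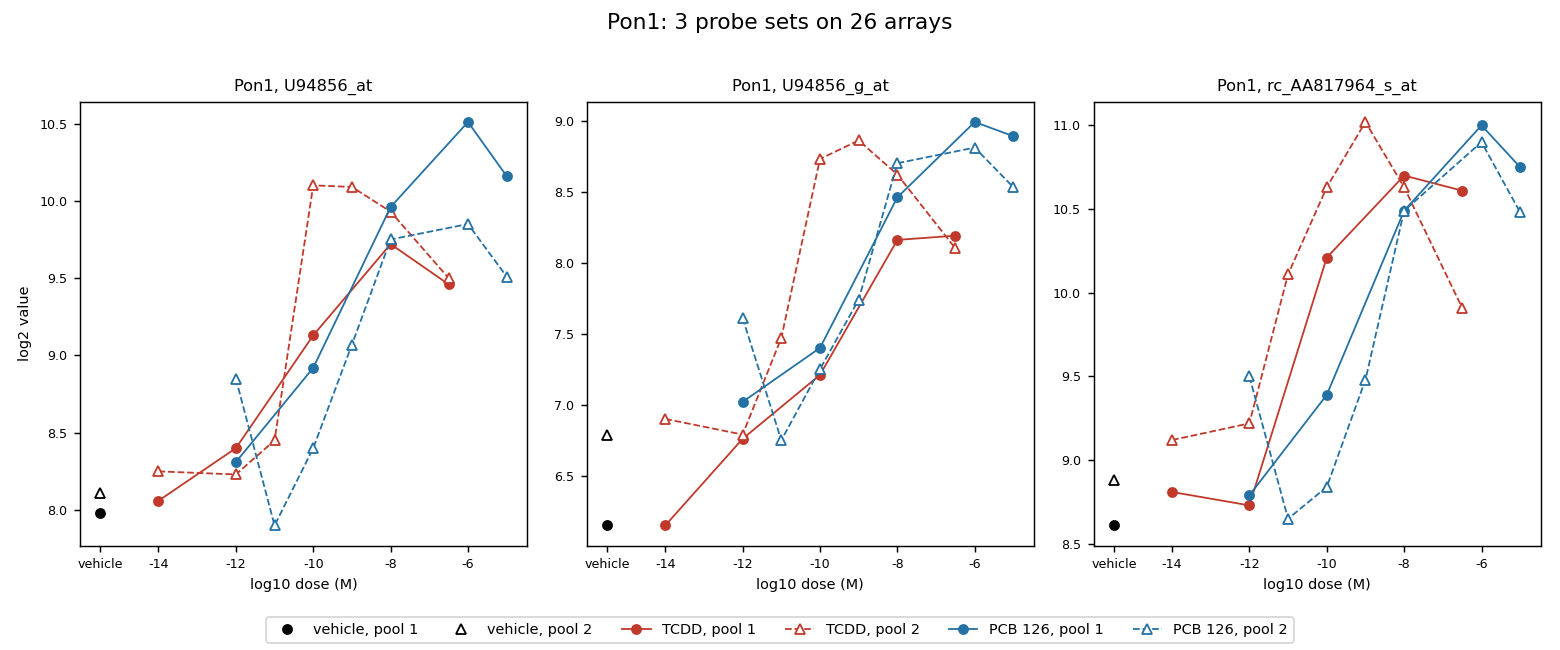
Deposited log2 values of the 3 Pon1 probe sets (y axis) against log10 dose (x axis, vehicle at the left), 1 point per array, with TCDD in red, PCB 126 in blue, pool 1 filled and pool 2 open. On rc_AA817964_s_at the 1 TCDD array at -11 reads 10.11, and PCB 126 arrays reach 10.49 at -8. That TCDD array has the highest actin ratio. It lies 1.24 log2 above its pool's vehicle on this probe set and 0.34 above on U94856_at.

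The other Pon1 probe sets also rose with both chemicals, but they differed on the TCDD array at -11. There U94856_at lay 0.34 log2 above its pool's vehicle and U94856_g_at 0.68, against 1.24 on rc_AA817964_s_at. U94856_at was at 7.98 and 8.11 log2 on vehicle, at 8.06 to 8.45 on the TCDD arrays from -14 to -11 and at 9.13 to 10.10 from -10 up. With PCB 126 it ran from 7.90 to 9.07 up to -9 and from 9.51 to 10.51 from -8 up, so neither chemical's upper doses overlapped its lower ones. U94856_g_at was at 6.15 and 6.79 on vehicle and at 7.21 to 8.86 on TCDD arrays from -10 up, of which the pool 1 array at -10 (7.21) lay below the pool 2 array at -11 (7.47). PCB 126 gave 6.75 to 7.74 up to -9 and 8.46 to 8.99 from -8 up. Over the 26 arrays, after subtraction of each pool's mean, the 3 probe sets correlated at r = 0.93 to 0.98, as a description of probes read on the same arrays.

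The Pon1 slopes with TCDD were 0.24 ± 0.05 (SE; rc_AA817964_s_at, adjusted p = 0.0114), 0.24 ± 0.05 (U94856_at, 0.00969) and 0.27 ± 0.05 log2 per decade (U94856_g_at, 0.00484). With PCB 126 they were 0.30 ± 0.05 (0.00445), 0.26 ± 0.05 (0.00571) and 0.28 ± 0.05 (0.00483), in the same order, again from limma with Benjamini-Hochberg adjustment. Fitted per pool, all 12 slopes were positive, from 0.18 to 0.32. No Pon1 slope differed between pools at an adjusted p of 0.05, and neither did that of any other member (0% of all probe sets for either chemical). In leave-one-out fits 1 of these 6 calls was lost: without the TCDD array at -14 of pool 1, rc_AA817964_s_at had a slope of 0.22 and an adjusted p of 0.0597. Fitted on the TCDD arrays alone, rc_AA817964_s_at (adjusted p = 0.0673) and U94856_at (0.0519) lost their TCDD calls. In fits of 1 pool's arrays alone none of the 6 passed, with adjusted p from 0.0897 to 0.164 in pool 1 and from 0.108 to 0.536 in pool 2.

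At high doses Pon1 on rc_AA817964_s_at was 3.29-fold vehicle with TCDD (95% interval 2.28 to 4.76, adjusted p = 0.00154) and 4.11-fold with PCB 126 (2.84 to 5.94, adjusted p = 0.000421), by limma. U94856_at gave 3.05-fold (adjusted p = 0.00618) and 3.90-fold (0.000924), and U94856_g_at 3.47-fold (0.00575) and 5.04-fold (0.000574). Without the vehicle array of pool 1 the TCDD call was lost on U94856_at (adjusted p = 0.0832) and U94856_g_at (0.0933), and without that of pool 2 on U94856_at (0.0524). Without the pool as a block it was lost on U94856_g_at (0.0549). The calls on rc_AA817964_s_at and all 3 with PCB 126 were kept in each of the 31 alternatives run.

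By single dose against vehicle, rc_AA817964_s_at passed with TCDD at -10 (1.67 ± 0.29 log2, adjusted p = 0.00854), -9, -8 and -6.5, but not at -11 (1.35 ± 0.36, adjusted p = 0.0659, 1 array) or below. U94856_at passed at -10 (1.57 ± 0.33, adjusted p = 0.0287), -9 and -8 but not at -6.5 (1.44 ± 0.33, 0.0650), and U94856_g_at at -9 and -8 but not at -10 (1.5 ± 0.36, 0.0614) or -6.5 (1.67 ± 0.36, 0.0525). With PCB 126 all 3 passed at -8, -6 and -5 and at no lower dose. On rc_AA817964_s_at the differences were 1.75 ± 0.29 log2 at -8 (adjusted p = 0.00569), 2.21 ± 0.29 at -6 and 1.87 ± 0.29 at -5, against 0.72 ± 0.36 at -9 and -0.12 to 0.40 below it. At -9, a dose with 1 array of each chemical, TCDD gave 2.25 ± 0.36 on rc_AA817964_s_at (adjusted p = 0.0169). The doses of -11 and -9 have no replicates, so their standard errors and calls, here and below, come from the spread within the other groups and assume that the lone array varies like them. Of all probe sets tested, 2.39% passed with TCDD at -11, 1.23% at -10, 0.731% at -9, 2.12% at -8 and 0.616% at -6.5. With PCB 126 it was 0% at -9, 1.40% at -8, 1.48% at -6 and 3.00% at -5. In order of level, neighbouring groups among the upper doses differed by no more than their standard errors. The micromolar PCB 126 doses (-6 and -5) exceeded the nanomolar ones (-9 and -8) by 0.81 ± 0.23 log2, which did not pass (adjusted p = 0.986), and with limma 0 of all probe sets passed there (135 had an unadjusted p below 0.05).

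Apob, the VLDL protein, did not give one picture across its 5 probe sets. M27440_at rose with PCB 126, rc_AA997806_at rose with TCDD, and the other three did not pass with either chemical. M14952mRNA_at (3.31 to 4.35 log2) and M21842_at (3.50 to 4.75) lay close to the median of all values, and their slopes were between 0.00 and 0.03. U53873cds_at separated the pools, with 7.31 to 8.76 in pool 1 and 2.30 to 5.95 in pool 2 and no overlap. It is assigned to Apob by the platform table, and whether it reads Apob was not tested.

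M27440_at read 10.51 (pool 1) and 9.93 log2 (pool 2) on vehicle. TCDD gave 10.26 at -14, 10.08 at -12, 11.52 at -10, 11.11 at -8 and 10.93 at -6.5 in pool 1. In pool 2 TCDD gave 10.14 at -14, 9.72 at -12, 10.58 at -11, 11.01 at -10, 11 at -9, 10.39 at -8 and 9.98 at -6.5. In both pools the highest TCDD value was thus at -10, but in pool 2 it was level with that at -9, a dose pool 1 lacked. The values at -8 and -6.5 were lower again, that at -6.5 of pool 2 within 0.05 log2 of vehicle. With PCB 126 pool 1 read 9.90 at -12, 10.13 at -10, 11.67 at -8, 11.74 at -6 and 11.02 at -5. Pool 2 read 9.88 at -12, 8.73 at -11, 9.17 at -10, 10.14 at -9, 10.93 at -8, 11.24 at -6 and 10.70 at -5. Within each pool the PCB 126 arrays from -8 up lay above vehicle and above all lower doses, and the arrays at -11 and -10 of pool 2 were the lowest of all 26.

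The slope of M27440_at was 0.26 ± 0.06 log2 per decade with PCB 126 (limma, adjusted p = 0.0107) and 0.08 ± 0.06 with TCDD (adjusted p = 0.587). High PCB 126 doses were 1.94-fold vehicle (95% interval 1.47 to 2.55, adjusted p = 0.00967), and high TCDD doses 1.30-fold (0.988 to 1.72, adjusted p = 0.484). By single dose it passed with TCDD at -10 (1.05 ± 0.22 log2, adjusted p = 0.0276) and with PCB 126 at -8 (1.08 ± 0.22) and -6 (1.27 ± 0.22). The slopes of both chemicals differed by 0.18 ± 0.08, with an unadjusted p of 0.0393 and an adjusted p of 0.577, so a difference of trend was not shown. The PCB 126 trend call was lost without the array at -12 of pool 1 (adjusted p = 0.0561) and with only the doses given in both pools (0.0538), and the high-dose call without the vehicle array of pool 1 (0.0822) or of pool 2 (0.105), or without the pool as a block (0.597).

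On rc_AA997806_at vehicle read 5.90 (pool 1) and 6.17 log2 (pool 2). With TCDD pool 1 read 4.84 at -14, 5.23 at -12, 6.88 at -10, 7.80 at -8 and 7.43 at -6.5, and pool 2 read 6.30 at -14, 6.5 at -12, 7.89 at -11, 7.30 at -10, 7.47 at -9, 7.39 at -8 and 7.02 at -6.5. All TCDD arrays from -11 up lay above vehicle and the lower doses. The highest was the array at -11 of pool 2, on which the actin ratio was also the highest, and the part of RNA quality in it was not tested. With PCB 126 pool 1 read 6.19 at -12, 5.82 at -10, 7.32 at -8, 7.48 at -6 and 7.22 at -5, and pool 2 read 6.43 at -12, 5.78 at -11, 6.13 at -10, 6.51 at -9, 7.46 at -8, 7.51 at -6 and 6.96 at -5. The PCB 126 arrays from -8 up (6.96 to 7.51) did not overlap the lower doses or vehicle (5.78 to 6.51). The PCB 126 trend did not pass, and a separation at a cut read from the values is a description only.

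**Figure D3:**
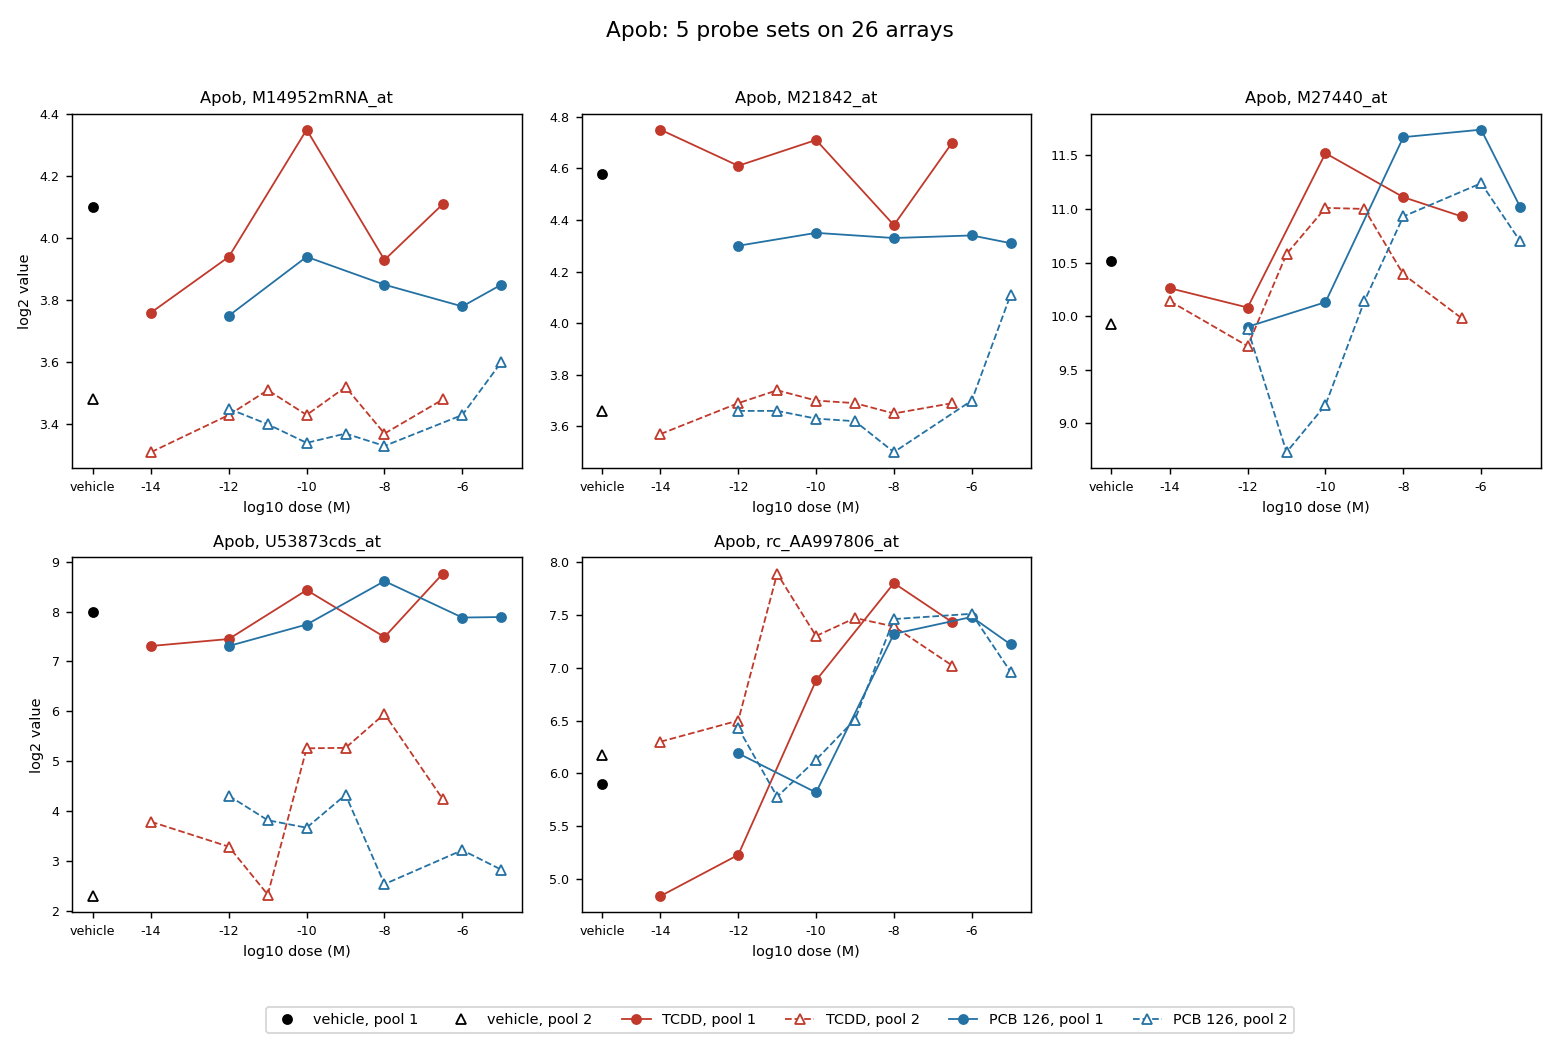
Deposited log2 values of the 5 Apob probe sets (y axis, a scale of its own per panel) against log10 dose (x axis, vehicle at the left), 1 point per array, coloured by chemical and filled for pool 1. With TCDD M27440_at is highest at -10 in pool 1 (11.52, no array at -9) and level at -10 and -9 in pool 2 (11.01 and 11). With PCB 126 it peaks at -6 (11.74), and on U53873cds_at the pools lie apart.

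The slope of rc_AA997806_at was 0.26 ± 0.06 log2 per decade with TCDD (limma, adjusted p = 0.0182) and 0.21 ± 0.06 with PCB 126 (adjusted p = 0.0574). Within pools the TCDD slope was 0.41 ± 0.08 in pool 1 and 0.11 ± 0.08 in pool 2, a difference of -0.30 ± 0.11 that did not pass (adjusted p = 0.470). The TCDD call was lost without the array at -14 of pool 1 (slope 0.20, adjusted p = 0.167), the lowest array of this probe set, without the array at -6.5 of pool 1 (0.0501), with only the TCDD arrays (0.108) and without the pool as a block (0.0681). At high doses it was 2.60-fold vehicle with TCDD (95% interval 1.57 to 4.31, adjusted p = 0.0501) and 2.40-fold with PCB 126 (1.44 to 3.97, adjusted p = 0.0657). After subtraction of pool means rc_AA997806_at and M27440_at correlated at r = 0.79 over 26 arrays, and U53873cds_at correlated with them at 0.21 and 0.19. U53873cds_at had a slope of 0.21 ± 0.09 with TCDD (adjusted p = 0.268) and of -0.07 ± 0.09 with PCB 126 (adjusted p = 0.699).

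Among the HDL proteins, Apoa4 was lower at high TCDD doses, and neither Apoa1 nor Apoa2 passed any dose comparison with vehicle. Apoa4, a lipid-binding protein made by intestine and rodent liver, read 5.56 (pool 1) and 6.40 log2 (pool 2) on vehicle (M00002_at). With TCDD pool 1 read 5.33 at -14, 5.53 at -12, 5.18 at -10, 4.50 at -8 and 4.47 at -6.5, and pool 2 read 5.51 at -14, 5.48 at -12, 4.56 at -11, 5.23 at -10, 4.76 at -9, 4.97 at -8 and 5.31 at -6.5. With PCB 126 pool 1 stayed between 5.19 and 5.45, and pool 2 ran from 5.93 at -12 to 5.02 at -5. The vehicle array was the highest of its pool in both pools, and in pool 2 it lay 0.47 log2 above the next array.

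High TCDD doses of Apoa4 were 0.446-fold vehicle (95% interval 0.307 to 0.647, limma, adjusted p = 0.0229) and high PCB 126 doses 0.570-fold (0.393 to 0.828, adjusted p = 0.125). The TCDD call was lost without the vehicle array of pool 2 (-0.82 log2, adjusted p = 0.337), without either of the TCDD arrays at -8 (0.0748) or -6.5 (0.104) of pool 1, without the pool as a block (0.178) and after centring (0.0621). The trends were -0.09 ± 0.03 log2 per decade with TCDD (adjusted p = 0.159) and -0.06 ± 0.03 with PCB 126 (adjusted p = 0.356). Of the single doses with 2 arrays, only TCDD at -8 passed against vehicle (-1.24 ± 0.29 log2, limma, adjusted p = 0.0372). TCDD at -6.5 gave -1.09 ± 0.29 (0.131). The 1 array at -9 gave -1.33 ± 0.36. That at -11, with the highest actin ratio, gave -1.53 ± 0.36, the largest difference, and the part of RNA quality in it was not tested.

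Apoa2, on X03468_at, read 8.75 and 8.61 log2 on vehicle and 6.63 to 8.83 on all other arrays. Its slopes were -0.13 ± 0.05 with TCDD (adjusted p = 0.166) and -0.09 ± 0.05 with PCB 126 (adjusted p = 0.368). Apoa1 on J02597cds_s_at ranged over 8.74 to 10.26 in pool 1 and 9.06 to 9.80 in pool 2, with slopes of -0.07 ± 0.04 and -0.01 ± 0.04. On M00001_i_at Apoa1 was spread over 3.39 to 7.03 in pool 1 and only 6.52 to 7.81 in pool 2, with slopes of -0.02 ± 0.09 and -0.08 ± 0.09. The TCDD array at -10 of pool 1 was the lowest of its pool on all 3 of these probe sets (6.63, 8.74 and 3.39).

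**Figure D4:**
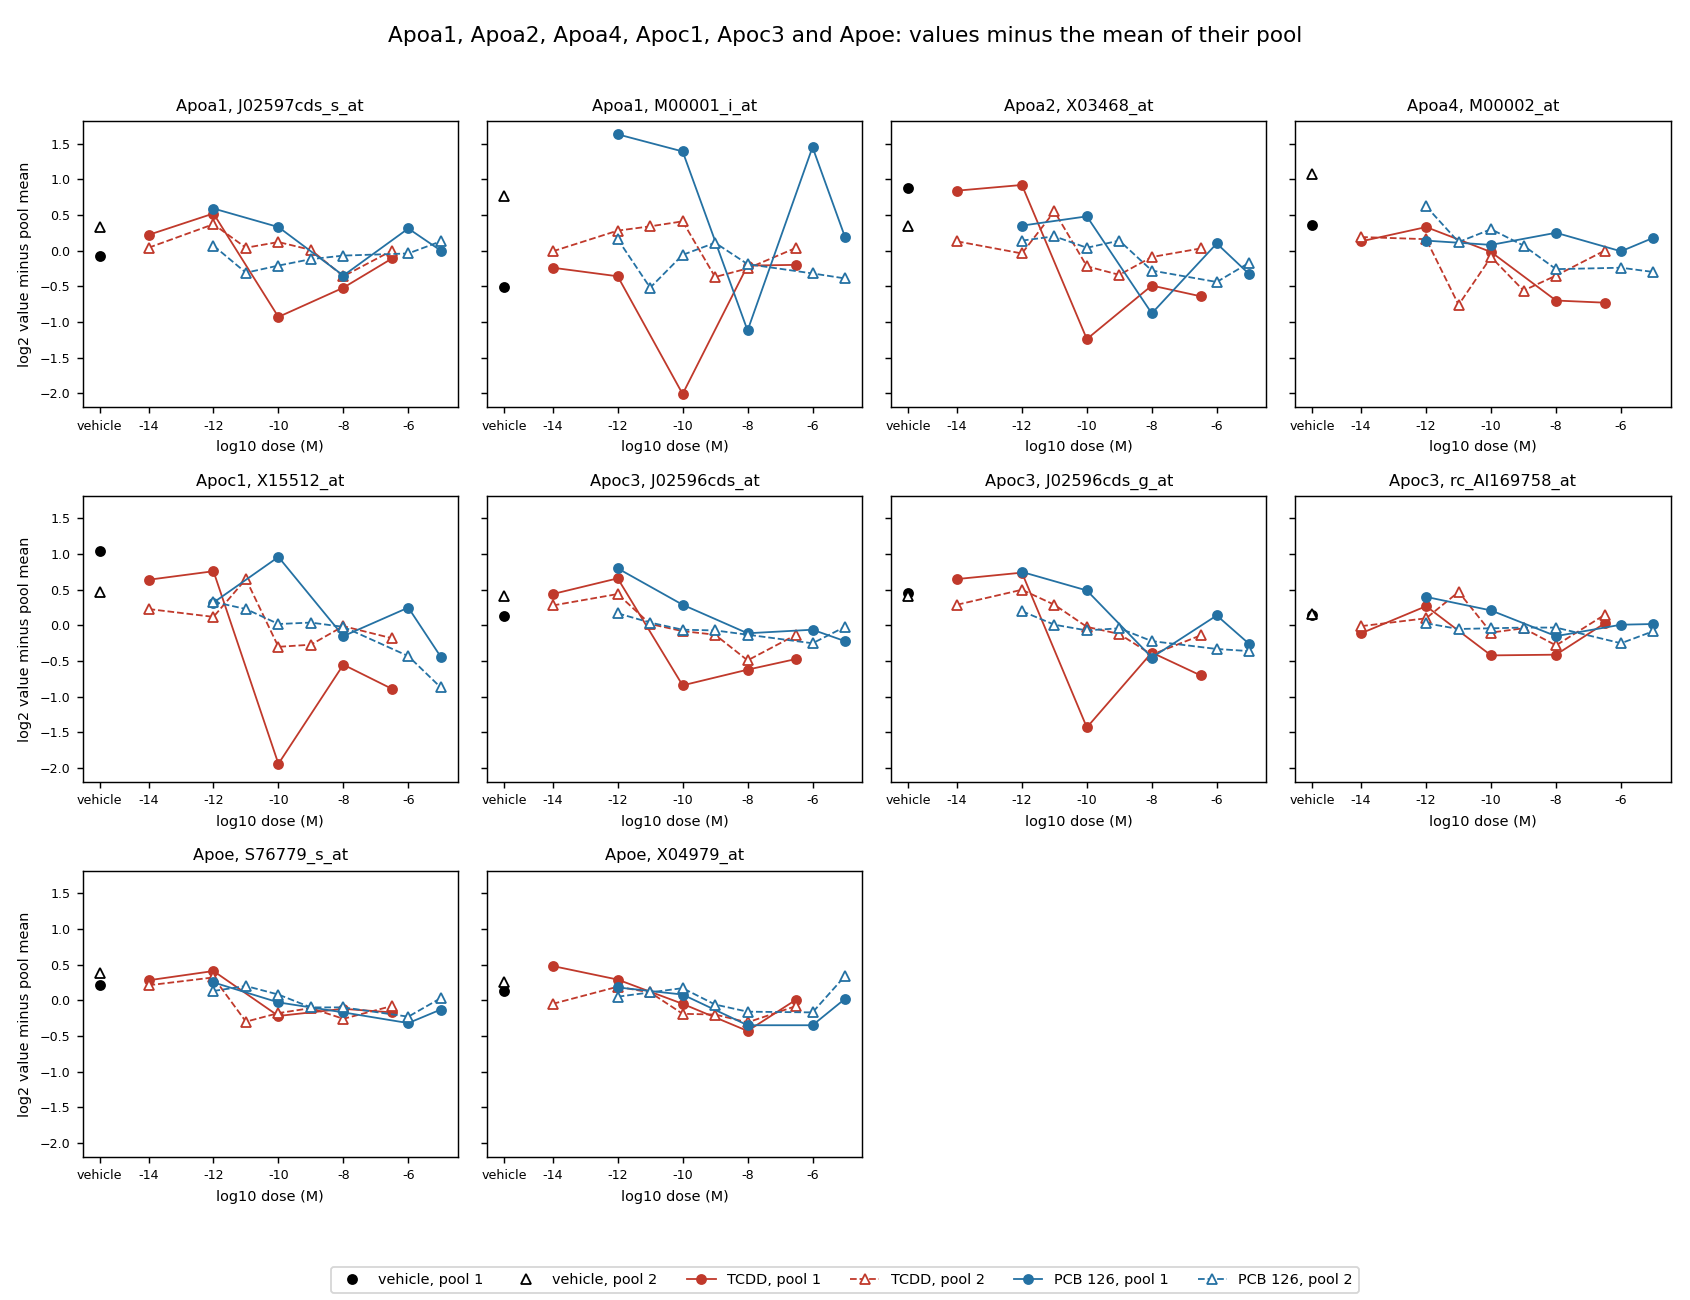
Values of the 10 probe sets of Apoa1, Apoa2, Apoa4, Apoc1, Apoc3 and Apoe minus the mean of their pool (y axis, log2, 1 scale for all panels) against log10 dose (x axis, vehicle at the left), 1 point per array. The TCDD array at -10 of pool 1 is the lowest point for Apoc1 (4.32 log2 as deposited) and for both J02596 probe sets of Apoc3.

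Apoc3, an inhibitor of lipoprotein lipase and of particle clearance, fell with TCDD on 1 of 3 probe sets. On J02596cds_at vehicle read 10.25 (pool 1) and 10.56 log2 (pool 2). TCDD gave 10.55 at -14, 10.77 at -12, 9.27 at -10, 9.49 at -8 and 9.64 at -6.5 in pool 1, and 10.43 at -14, 10.59 at -12, 10.17 at -11, 10.07 at -10, 10.01 at -9, 9.66 at -8 and 10.02 at -6.5 in pool 2. Within each pool the TCDD arrays from -10 up lay below vehicle and below those at -14 and -12. Its slope was -0.13 ± 0.03 log2 per decade (limma, adjusted p = 0.0249), and that with PCB 126 was -0.08 ± 0.03 (adjusted p = 0.229). The call was lost after centring (adjusted p = 0.0699), without the pool as a block (0.0681), with only the TCDD arrays (0.161), with only the doses given in both pools (0.0588) and in 6 of 26 leave-one-out fits, with an adjusted p of at most 0.0859 (without the TCDD array at -14 of pool 1). The other 5 arrays were those of TCDD at -12 and -8 in both pools and at -6.5 in pool 1 (0.0540 to 0.0709).

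J02596cds_g_at, from the same reference sequence, had slopes of -0.15 ± 0.04 with TCDD (adjusted p = 0.0582) and -0.10 ± 0.04 with PCB 126 (adjusted p = 0.268), and rc_AI169758_at, with values of 7.14 to 8.09 log2, of -0.02 ± 0.03 and -0.04 ± 0.03. Apoc1, another small protein of VLDL and HDL, read 7.29 (pool 1) and 8.26 (pool 2) on vehicle, and its high-dose means were 0.447-fold vehicle with TCDD (95% interval 0.241 to 0.826, adjusted p = 0.234) and 0.457-fold with PCB 126 (0.247 to 0.846, adjusted p = 0.218). Its lowest array was TCDD at -10 of pool 1, at 4.32. Without that array 8 probe sets passed the TCDD trend in place of 5, now with Apoc1 (-0.15, adjusted p = 0.0287), Apoc3 on J02596cds_g_at (-0.15, 0.00376) and Apoe on S76779_s_at (-0.07, 0.0465), and 6 passed the PCB 126 trend.

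Other arrays also moved the count of the TCDD trend. It was 2 without the TCDD array at -14 of pool 1, 3 without that at -6.5 of pool 1 and 8 without that at -6.5 of pool 2. Without the pool as a block it was 3. In the fit of all arrays with slopes by pool, 4 members passed with TCDD in pool 1, against 4.06% of all, and 0 in pool 2, against 0.173%. Those 4 were rc_AA997806_at of Apob, rc_AA817964_s_at and U94856_g_at of Pon1, and, falling, J02596cds_at of Apoc3. Fits of 1 pool's arrays alone gave 0 with TCDD in either pool, and with PCB 126 0 in pool 1 and 1 in pool 2 (Apoc1, slope -0.15, adjusted p = 0.0494).

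Apoe, the ligand of hepatic clearance receptors, was lower at high doses of both chemicals on S76779_s_at. Vehicle read 12.74 (pool 1) and 12.47 log2 (pool 2). With TCDD pool 1 read 12.81 at -14, 12.93 at -12, 12.30 at -10, 12.40 at -8 and 12.35 at -6.5, and pool 2 read 12.30 at -14, 12.41 at -12, 11.79 at -11, 11.91 at -10, 11.98 at -9, 11.83 at -8 and 12.01 at -6.5. Within each pool all TCDD arrays from -11 up lay below vehicle and the lower doses. With PCB 126 pool 1 read 12.78 at -12, 12.49 at -10, 12.36 at -8, 12.20 at -6 and 12.39 at -5, and pool 2 read 12.22 at -12, 12.29 at -11, 12.17 at -10, 11.99 at -9, 11.99 at -8, 11.86 at -6 and 12.12 at -5. In pool 2 every treated array lay below vehicle.

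High doses of TCDD were 0.729-fold vehicle on S76779_s_at (95% interval 0.631 to 0.844, limma, adjusted p = 0.0229) and those of PCB 126 0.726-fold (0.628 to 0.840, adjusted p = 0.0176). By single dose it passed with TCDD at -10 (-0.50 ± 0.11 log2, adjusted p = 0.0484) and -8 (-0.49 ± 0.11, 0.0372), and with PCB 126 at -6 (-0.57 ± 0.11, 0.0161). At -11 the 1 TCDD array, that with the highest actin ratio, gave -0.61 ± 0.14 (adjusted p = 0.0333, from the spread of the other groups), and the part of RNA quality in it was not tested. Both high-dose calls were lost without the vehicle array of pool 1 (adjusted p = 0.0832 with TCDD and 0.0707 with PCB 126), without that of pool 2 (0.288 and 0.231), without the pool as a block (1 and 1) and without the filter on low values (0.0766 and 0.0574). The TCDD call was also lost after centring (0.0753) and without the TCDD arrays at -6.5 of pool 1 (0.0987) or -8 of pool 2 (0.0860), and the PCB 126 call without the arrays at -6 (0.0534) or -5 (0.0536) of pool 1. Slopes on this probe set were -0.07 ± 0.02 with TCDD (adjusted p = 0.0576) and -0.05 ± 0.02 with PCB 126 (adjusted p = 0.149). X04979_at, the other Apoe probe set, had slopes of -0.06 ± 0.02 (adjusted p = 0.177) and -0.02 ± 0.02 (adjusted p = 0.580). Against vehicle it gave -0.57 ± 0.17 log2 with TCDD at -8 and -0.23 ± 0.17 at -6.5. With PCB 126 it gave -0.46 ± 0.17 at -6 and -0.02 ± 0.17 at -5. None of these differences passed.

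Macrophages also make Apoe, and their markers were read on the same arrays. Of 14 listed markers 8 were on the array and 5 passed the filter. Lyz2, a lysozyme of macrophages, fell with TCDD (-0.19 ± 0.04 log2 per decade, limma, adjusted p = 0.00915) and with PCB 126 (-0.17 ± 0.04, adjusted p = 0.0222), and ran from 6.43 to 8.84 log2. The other four did not pass. Cd14, a coreceptor for lipopolysaccharide (2.89 to 5.45), had slopes of the opposite sign, 0.13 ± 0.04 with TCDD (adjusted p = 0.105) and 0.07 ± 0.04 with PCB 126 (0.384). Ptprc, the leukocyte marker CD45 (4.10 to 6.01), had slopes of -0.02 ± 0.03 and 0.05 ± 0.03. Aif1 (3.26 to 4.31) and C1qc (3.47 to 4.48) were near the median of all values, with slopes of 0.01 to 0.03. The mean of the 5 markers was 5.28 and 4.94 on the vehicle arrays, 4.70 to 5.21 with TCDD and 4.75 to 5.22 with PCB 126. The part of macrophage content in the Apoe values was not tested. Of 7 enterocyte markers, a cell type that makes Apoa4 and Apob, 1 passed the filter, Anpep (3.35 to 5.99), and its slopes of -0.08 ± 0.03 and -0.07 ± 0.03 did not pass.

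TCDD and PCB 126 were compared directly at -12, -10 and -8, the doses both chemicals had in both pools. They differ in their ring system, a dibenzo-p-dioxin against a biphenyl. At -12 and at -8 none of the 18 passed, nor did any probe set of the array (0%), with limma (at an unadjusted p below 0.05 there were 0 of 18 and 1 of 18, against 101 and 103 of all 5197). At -10 1 of 18 passed, against 0.0385% of all, which were 2 probe sets. At an unadjusted p below 0.05 there were 8 of 18, against 756 of all 5197. That one was Apob on M27440_at, where TCDD exceeded PCB 126 by 1.39 log2 in pool 1 and 1.84 in pool 2, or 3.06-fold in the fit (95% interval 2.23 to 4.21, adjusted p = 0.0113). The call was lost without the TCDD array at -10 of pool 1 (adjusted p = 0.213), without the PCB 126 array at -10 of pool 2 (0.288) and without the pool as a block (0.685). Without the TCDD array at -10 of pool 2, the comparison rested on the pool 1 array on which Apoa1, Apoa2, Apoc1 and Apoc3 were lowest. On M27440_at, TCDD at -10 gave 1.05 ± 0.22 log2 against vehicle. PCB 126 at -10 gave -0.57 ± 0.22, which did not pass, so the difference between the chemicals holds more than the rise with TCDD.

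For Pon1 on rc_AA817964_s_at the difference at -10 was 0.82 log2 in pool 1 and 1.79 in pool 2, 2.47-fold in the fit (95% interval 1.61 to 3.78, adjusted p = 0.119). On U94856_at it was 0.20 and 1.70 log2 (1.93-fold, 1.19 to 3.14, adjusted p = 0.332). On U94856_g_at it was -0.18 and 1.48 log2 (1.57-fold, 0.921 to 2.67, adjusted p = 0.349), so its sign differed between the pools. On rc_AA997806_at of Apob it was 1.06 and 1.17 log2 (2.16-fold, 1.21 to 3.88, adjusted p = 0.332). In pool 2 alone, at -11 and -9, TCDD exceeded PCB 126 on rc_AA817964_s_at by 1.47 and 1.53 log2. On U94856_at it did so by 0.55 and 1.02, on U94856_g_at by 0.72 and 1.11 and on M27440_at by 1.84 and 0.86. Each value rests on 1 array of each chemical, and the TCDD array at -11 had the highest actin ratio. At -8 the Pon1 difference on rc_AA817964_s_at was 0.17 ± 0.29 log2 (95% interval of the ratio 0.737 to 1.72), and the Apob difference on M27440_at was -0.55 ± 0.22 (0.495 to 0.936, adjusted p = 1). For Apoe on S76779_s_at the ratio of TCDD to PCB 126 was 0.855 at -10 (0.722 to 1.01) and 0.963 at -8 (0.814 to 1.14). No slope of the 18 differed between the chemicals (0% of all, smallest adjusted p of the 18 0.577), and 2 of 18 did so at an unadjusted p below 0.05, against 342 of all 5197. The mean difference over the 3 doses also passed for none of them (0%), with 3 of 18 at an unadjusted p below 0.05, against 367 of all 5197.

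**Figure D5:**
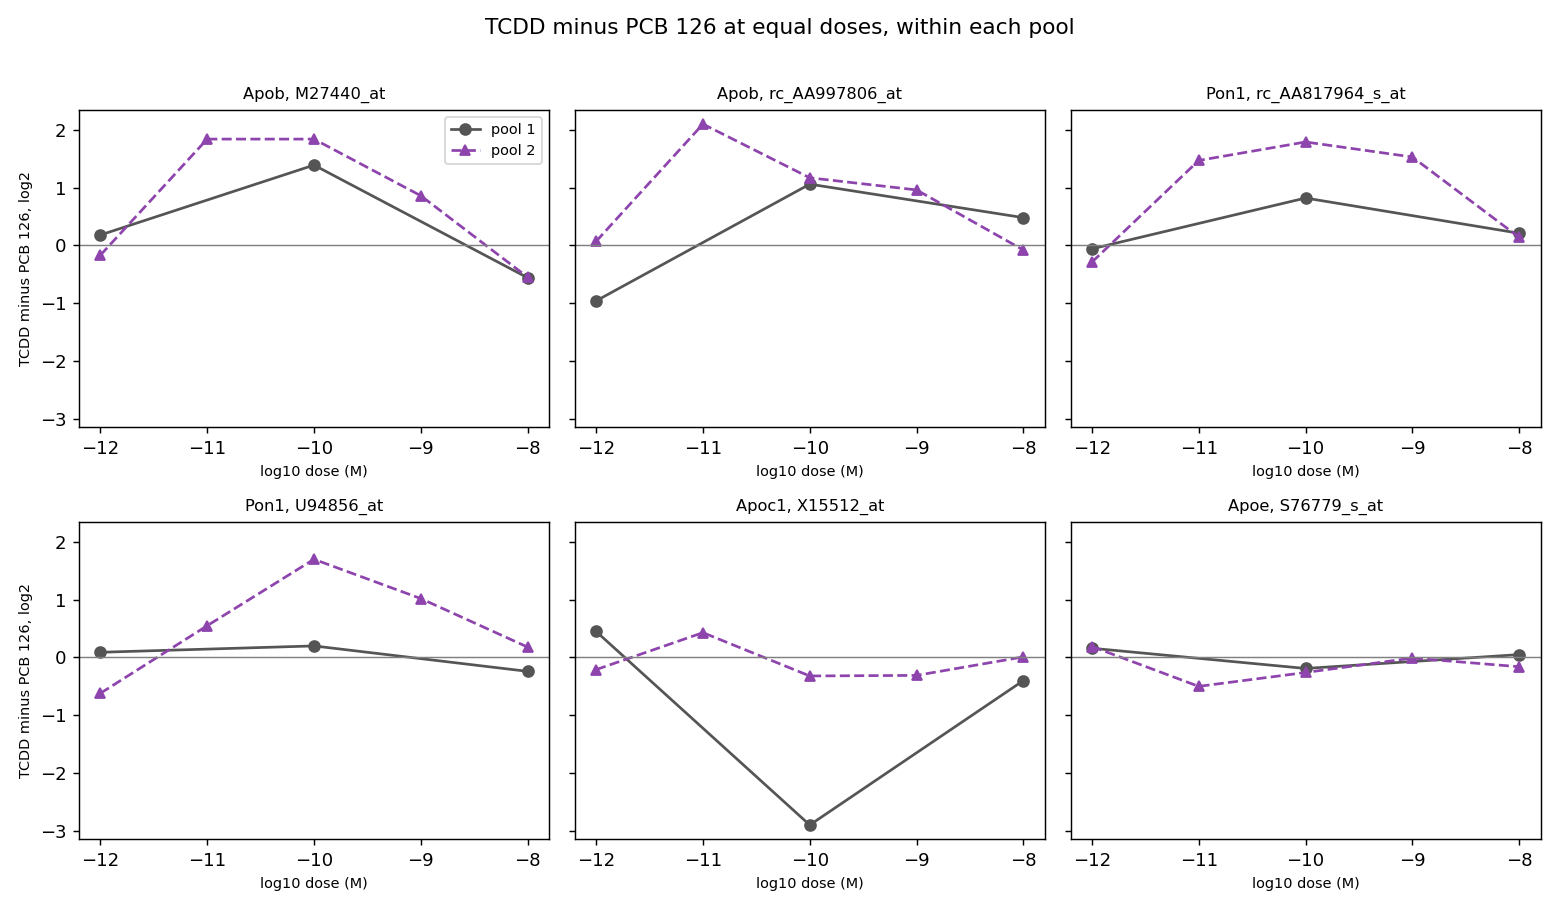
TCDD minus PCB 126 at equal log10 doses (x axis) within each pool (y axis, log2), 1 point per pair of arrays, for 6 probe sets. M27440_at of Apob lies at 1.39 (pool 1) and 1.84 (pool 2) at -10 and at -0.56 and -0.55 at -8, and Apoc1 at -10 lies at -2.90 in pool 1 and -0.32 in pool 2.

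The pools differed for 10 of the 18 probe sets, 4 higher and 6 lower in pool 2, against 79.8% of all probe sets (40.0% higher and 39.7% lower), so such a difference was the rule on these arrays. Apoc1 was higher in pool 2 by 1.52 ± 0.20 log2 and Apoa1 on M00001_i_at by 1.62 ± 0.29. Apoe was lower by 0.44 and 0.49 on its 2 probe sets, and Apob on U53873cds_at differed by -4.12 ± 0.31. None of the 3 Pon1 probe sets passed (-0.05 to 0.29). Pool moves with the array median and the actin ratio given above, and their part was not tested.

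After subtraction of pool means, correlations between probe sets were taken over the 26 arrays, as a description of values that share arrays and doses. Pon1 on rc_AA817964_s_at correlated with Apob at r = 0.87 (M27440_at) and 0.90 (rc_AA997806_at), and with Apoe on S76779_s_at at -0.86. Its correlations with Apob on M14952mRNA_at (0.16), M21842_at (-0.05) and U53873cds_at (0.33) and with Apoa1 on M00001_i_at (-0.14) were weak. Apoa2 and Apoc1 correlated at 0.89, and Apoc3 on J02596cds_g_at with Apoa1 on J02597cds_s_at at 0.84. Over 3033 genes, those most like Pon1 were Tat (0.96), a tyrosine aminotransferase, Slc41a2 (0.95), a magnesium transporter, and Aldh3a1 (0.94), an aldehyde dehydrogenase and known AhR target. Most like Apob were Sod2 (0.89), the mitochondrial superoxide dismutase, Pon1 (0.87) and Cyp2a2 (0.85). For Apoe they were Slc37a4 (0.87), the glucose-6-phosphate transporter, Jup (0.83) and Uox (0.81).

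Among the other members, Apoa2 was nearest to Ttr (0.92), the thyroid hormone carrier transthyretin, then to Apoc3 and Apoc1 (0.89 each). Apoc1 was nearest to Rnf130 and Apoc3 (0.90 each) and Apoa2 (0.89). Apoa1 was nearest to Apoc3 (0.84), the complement gene C8b (0.82) and Proc (0.79), which encodes protein C. Apoc3 was nearest to Proc and Phgdh (0.92 each) and Akr7a3 (0.91). Apoa4 had no close partner, with Tspan17 at 0.72, Glud1 at 0.71 and Lyz2 at 0.69.

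Other genes of lipoprotein metabolism mostly did not pass in either trend. Of the other apolipoproteins 2 of 9 were measured (Apoh and Apom) and 0 passed, with a median slope of -0.04 for both chemicals. Of the genes of particle assembly and secretion 6 of 18 were measured and 0 passed, the nearest being Soat1, a cholesterol esterifying enzyme, with TCDD (0.10 ± 0.04, adjusted p = 0.125). Of those of plasma remodelling and HDL 7 of 19 were measured and 0 passed, Lipc, the hepatic lipase, being nearest (-0.15 ± 0.05 with TCDD, adjusted p = 0.109, and -0.16 ± 0.05 with PCB 126, adjusted p = 0.0677). Of the particle uptake genes 6 of 15 were measured and 0 passed. By limma these 4 lists held 0, 2, 1 and 1 genes at an unadjusted p below 0.05 with TCDD, against 753 of all 5197. With PCB 126 they held 0, 0, 1 and 1, against 877 of all 5197 probe sets.

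Of 24 listed symbols of transcription factors that act on apolipoprotein genes, 20 were on the array and 13 passed the filter on low values. Of those measured, 1 rose with both chemicals. It was Cebpb, the C/EBP beta factor of the acute phase, with 0.30 ± 0.05 log2 per decade with TCDD (limma, adjusted p = 0.00335) and 0.24 ± 0.05 with PCB 126 (adjusted p = 0.0105). Of 9 hepatocyte markers 1 fell with TCDD, Cps1 of the urea cycle (-0.21 ± 0.05, adjusted p = 0.0249), and none passed with PCB 126, where 7 had an unadjusted p below 0.05, against 877 of all 5197 probe sets. Of those 7, Alb (-0.05), Ttr (-0.11) and Cps1 (-0.14) had negative slopes and Ahsg (0.05), Fgb (0.06), Hpx (0.03) and Rbp4 (0.11) positive ones. Of 6 measured stellate cell and fibroblast markers 1 fell with PCB 126, the actin-binding Tagln (-0.48 ± 0.09, adjusted p = 0.00549), and its slope with TCDD was -0.28 ± 0.09 (adjusted p = 0.118). The endothelial and the cholangiocyte list had 2 measured genes each, and none passed in either trend. Whether these cells contribute to the values of the apolipoproteins was not tested.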

How the data were processed

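Labelled RNA of 26 cultures was read on 1 type of Affymetrix rat array. The authors' deposited values are on a log2 scale, made with GCRMA 2.8.0 per the submitters' processing notes, which also list RMA. Their settings were not stated. GCRMA can compress differences between dim probe sets, and its part here was not tested. Chemical, dose and pool came from the labels. Control probe sets (59 of 8799) were left out, and 5197 passed the filter. Of the rest 7006 had 1 gene in the platform table, 308 several and 1426 none. Linear models were fitted with limma 3.58.1 in R 4.3.3 (eBayes with trend and robust, two-sided, Benjamini-Hochberg over 5197, threshold 0.05). The trend model had pool, chemical and slopes on log10 dose (20 residual degrees of freedom), the group model pool and 15 groups (10), and a further model slopes by pool (18). They were tested on simulated data. Pool entered as a block, since by the labels a pool's arrays share their animals, and deviations of same-pool arrays from their group means correlated at r = 0.461 to 0.892. No 2 arrays were identical.

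Named were every member probe set, Cyp1a1, per list the genes that passed in either trend and otherwise up to 2 with the smallest p, and per member the 3 genes of highest correlation. Genes with several probe sets were represented by the one with the highest mean. The members and lists were chosen with earlier results of these data known. Probe sets ending in _s can read related sequences. Levels of different probe sets are not compared.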

Additional observations from a re-analysis of the deposited data

Results flagged for a closer look

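The comparison of TCDD with PCB 126 at the dose of -10 drew attention for Apob on M27440_at, because the chemicals differed there by a test of the difference itself: TCDD was higher by 1.61 ± 0.22 log2 (limma, adjusted p = 0.0113), in 2 of 2 pools. At -12 and -8 the same test found no difference past the threshold. Whether the difference at -10 exceeds those at the other doses was not tested. Against vehicle, TCDD at -10 gave 1.05 ± 0.22 log2 and PCB 126 at -10 gave -0.57 ± 0.22, the latter without passing. The groups hold at most 2 arrays, so no array could be tested as an outlier within its group.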

How the results depend on the processing

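Alternatives were recomputed for the 18 probe sets in 10 comparisons, with 5876 values in all. No called value changed sign, 65 values lost a call and 52 gained one, and 128 values without a call changed sign. Of the counts of members passing, the TCDD trend (5) gave 3 without the replicate block, 1 with only the arrays of 1 chemical, 0 in pool 1 alone, 0 in pool 2 alone, 10 when vehicle was given a dose 1 decade under the lowest, and 2 to 8 when leaving out each array. The PCB 126 trend (4) gave 8 with only the arrays of 1 chemical, 0 in pool 1 alone and 1 in pool 2 alone. TCDD high doses (5) gave 2 without the replicate block, 3 with centred arrays and 2 to 6 when leaving out each array. PCB 126 high doses (5) gave 3 without the replicate block and 3 to 6 when leaving out each array. The difference at -10 (1) gave 0 without the replicate block and 0 to 9 when leaving out each array. The causes were not tested. Except for centring, the share of all probe sets passing was not counted for these alternatives, so the counts may move with the whole array. The pairing by pool changed no call in the PCB 126 trend. Without the 1 PCB 126 array at -9 the micromolar against nanomolar comparison could not be fitted. Each pool is 1 biological unit, and signal near the background limits the dim Apob probe sets.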
